A study of Mus musculus with 6 samples.

Results

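The Dlx, Msx and Ebf genes encode transcription factors that pattern the embryo, and 9 of them (Dlx1, Dlx2, Dlx5, Dlx6, Msx1, Msx2, Ebf1, Ebf2 and Ebf3) are described here among 19938 genes measured on the same arrays. Each gene was taken as the probe set with that symbol alone in the platform annotation, and each of the 9 had 1 such probe set. The 9 symbols themselves were chosen by their log2 difference between the genotypes on these same 6 arrays. Their differences below are therefore a description, and the p-values beside them, from a fit over all genes, only set each difference against the spread of the arrays.

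The arrays compared immortalized neural precursor-like cells from C57BL/6J mice, with 3 arrays of cells wild type for Lgi1 and 3 arrays of cells in which both copies of Lgi1 were deleted (knock-out). Lgi1 encodes a secreted synaptic protein linked to epilepsy. All cells derived from embryonic brain at day 13.5 and, once immortalized, shared a medium of RPMI with 1% serum. The labels give neither how the cells were immortalized nor how many embryos or lines stand behind the 3 biological replicates of a genotype, so the spread between arrays may be technical.

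Dlx genes encode homeodomain proteins that lie in the genome as facing pairs, Dlx1 with Dlx2 and Dlx5 with Dlx6. In the embryo they act in the ganglionic eminences of the ventral forebrain, where they direct the making of GABA neurons, and in the jaw and limb. Msx proteins belong to the same NK-like class of homeodomain factors, act mostly as repressors, and are well known targets of BMP signals in the dorsal neural tube, neural crest and limb. Ebf proteins, the early B cell factors, form a separate family with a zinc-binding DNA-binding domain and a helix-loop-helix dimerization motif, and act in early B cells, in neurons leaving the cell cycle, and in fat and marrow stromal precursors.

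RefSeq promoter windows, which run from 250 bases before a transcript's start to 50 bases after it, were at hand for 6 of the 9 genes (Dlx1, Dlx2, Msx1, Msx2, Ebf1 with 2 starts, and Ebf3; assembly GRCm38.p6). They were searched on both strands for TAATT, the core bound by many homeodomains, and for CCCNNGGG, the inner part of the palindrome that Ebf dimers bind, which reads the same on both strands. The windows of Ebf1 and Ebf3, the Ebf genes with the largest rises, and of Msx2, the one gene that fell, are shown 5′ to 3′ along the gene, with matches in capitals. They are Ebf1 at chr11:44617850-44618149 on the plus strand, Ebf3 at chr7:137314396-137314695 on the minus strand and Msx2 at chr13:53472731-53473030 on the minus strand.
Ebf1: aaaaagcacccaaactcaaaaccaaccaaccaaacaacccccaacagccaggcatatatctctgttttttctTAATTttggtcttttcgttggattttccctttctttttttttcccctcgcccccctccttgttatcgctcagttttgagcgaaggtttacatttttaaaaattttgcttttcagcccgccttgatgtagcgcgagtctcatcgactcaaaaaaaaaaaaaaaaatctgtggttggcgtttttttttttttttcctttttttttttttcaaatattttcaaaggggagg
Ebf3: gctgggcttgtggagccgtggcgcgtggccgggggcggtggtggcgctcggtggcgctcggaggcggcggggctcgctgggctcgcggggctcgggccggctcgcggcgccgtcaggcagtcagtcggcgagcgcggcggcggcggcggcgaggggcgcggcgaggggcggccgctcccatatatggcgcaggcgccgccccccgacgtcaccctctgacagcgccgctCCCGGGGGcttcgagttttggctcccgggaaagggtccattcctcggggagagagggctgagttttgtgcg
Msx2: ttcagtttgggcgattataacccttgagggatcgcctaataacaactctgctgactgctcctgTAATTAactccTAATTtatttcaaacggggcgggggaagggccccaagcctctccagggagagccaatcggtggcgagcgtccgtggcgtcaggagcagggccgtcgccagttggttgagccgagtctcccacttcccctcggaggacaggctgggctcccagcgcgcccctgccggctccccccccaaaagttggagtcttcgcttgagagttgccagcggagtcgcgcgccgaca

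The Msx2 window held 3 matches to TAATT, of which 2 overlap as TAATTA, between positions −187 and −176 from the start site. In Ebf1 the window held 1 match to TAATT, at −178, and none to CCCNNGGG. Ebf3 had CCCNNGGG once, at −21, and no TAATT. The second start of Ebf1 and the windows of Dlx1, Dlx2 and Msx1 held neither motif. Of all 32851 windows of this length, 27.0% held TAATT and 13.7% held CCCNNGGG, so either match is common. The Ebf3 window was rich in CpG, with 46 CpG dinucleotides against a median of 7 over all windows, and the first Ebf1 window had 9. A match describes letters and was not measured as a bound site.

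The values are log2 array signals. Because probe sets differ in brightness, a level is compared between genotypes of the same gene and not between genes. To gauge background, the 1194 measured genes for odour and pheromone receptors, known from sensory neurons of the nose, had a median log2 signal of 4.89 and a range of 4.42 to 5.68 between their 5th and 95th percentiles. The median of all probe sets lay between 6.36 and 6.41 on the 6 arrays. Lgi1 itself lay within that background range in both genotypes (means 4.77 ± 0.168 and 4.55 ± 0.0211, SD, n = 3 each). Its difference of −0.22 (SE 0.08, limma adjusted p = 0.075) passed the test with replicate numbers as a block (adjusted p = 0.046), with median centring (0.04), with an intensity trend and robust fit (0.046) and without wild-type replicate 1 (0.018). A signal this close to background is a weak check of the genotype labels. The genotypes also differed in Xist, at 4.64 against 12.44 in knock-out cells, and in the Y-linked gene Eif2s3y, at 10.19 against 4.67. Sex, as marked by these genes, thus differed along with genotype. Deletion of Lgi1, sex and other differences between the cells of origin cannot be told apart in this design.

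Of the 9 genes, 6 were higher in knock-out cells, 1 was lower and 2 did not pass the test. A gene counts as changed, risen or fallen at a Benjamini-Hochberg adjusted p under 0.05 in limma, and over all genes 31.6% passed it, 14.0% as higher and 17.6% as lower. The arrays of the genotypes did not overlap for 7 of the 9 genes, against 42.3% of all genes. Rises of at least 2-fold in signal were found for Ebf1, Ebf3 and Dlx5, against 3.05% of all genes. That of Dlx5 was measured from wild-type signal inside the background range, so its size is not a fold of transcript. The median log2 difference of the 9 genes was +0.69 and that of all genes −0.01. With the symbols chosen by these differences, these counts show nothing particular to the 3 families. In RNA from a whole culture, fewer cells that express a gene and less of its RNA per cell cannot be told apart.

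**Figure D1:**
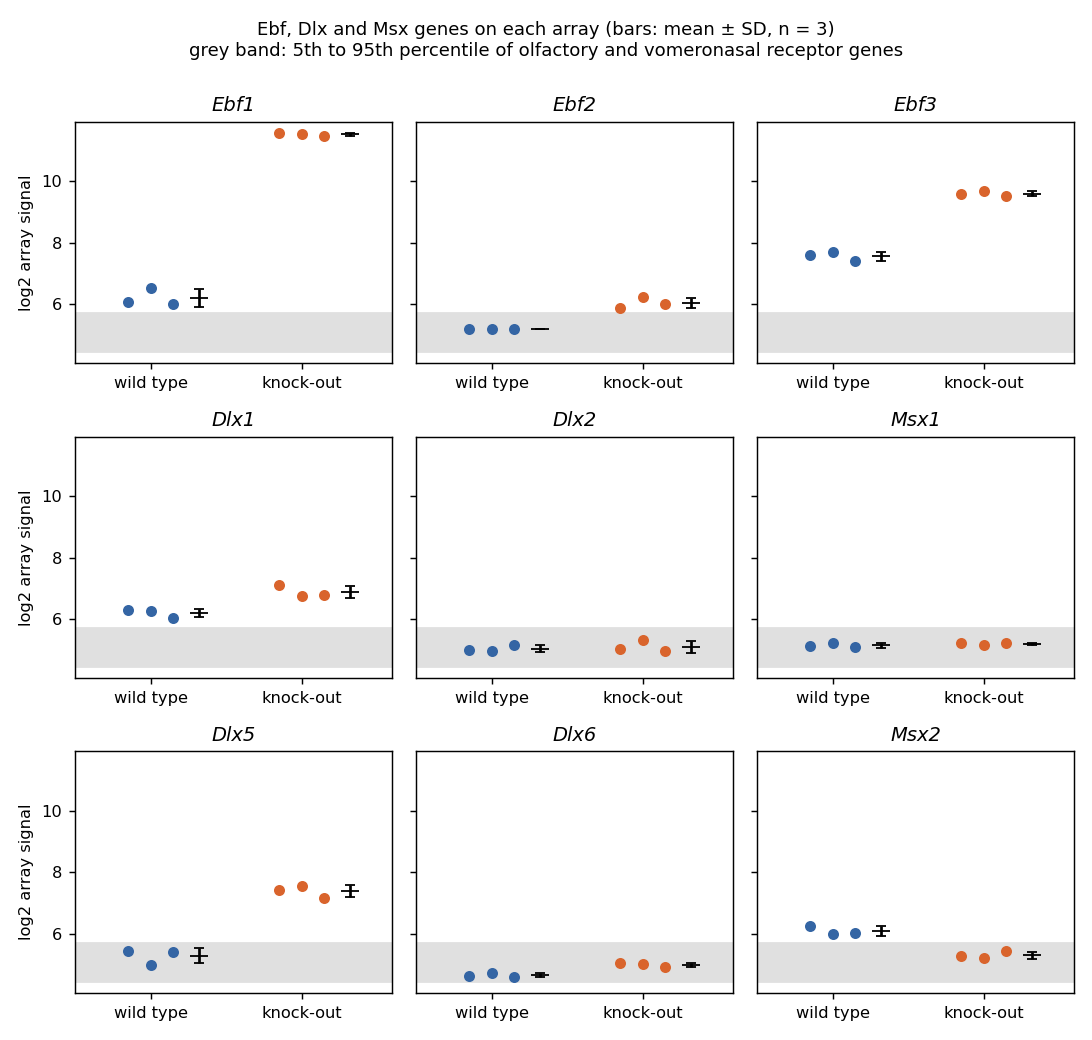
Log2 array signal of the 9 genes on each of the 3 wild-type (blue) and 3 knock-out (orange) arrays, with mean ± SD beside the points and a grey band from 4.42 to 5.68 for the 5th to 95th percentile of receptor genes. Ebf1, Ebf3 and Dlx5 stand far apart between genotypes, Msx2 drops into the band, and Dlx2 and Msx1 overlap within it.

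Ebf1, which commits progenitors to the B cell lineage and also acts in striatal neurons and stromal cells, had the largest difference of the 9 genes. Its log2 signal was 6.06, 6.52 and 5.99 in the 3 wild-type samples, against 11.60, 11.55 and 11.50 without Lgi1. Every knock-out array thus lay at least 4.98 log2 units above every wild-type array. The means were 6.19 ± 0.286 and 11.55 ± 0.0508 (SD, n = 3 each), a log2 difference of +5.36 (SE 0.12, limma adjusted p = 3.6e-10), or 41.1-fold. Only 20 of the 19938 genes rose by more. The wild-type mean was brighter than 98.2% of receptor genes. Its values also spread more in wild-type cells, over 0.53 log2 units, than in knock-out cells, over 0.10.

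Ebf3, a relative expressed in developing neurons and known as a growth suppressor, was above the receptor range in both genotypes. It read 7.58, 7.68 and 7.40 in wild-type cells against 9.59, 9.68 and 9.54 in knock-out cells, so that the genotypes were separated by 1.85 log2 units. The difference was +2.05 (SE 0.08, adjusted p = 2.3e-08, limma), or 4.14-fold. Wild-type Ebf3 was brighter than 99.7% of receptor genes, so that its rise started from a detected level, and 249 genes rose by more.

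Ebf2, which acts in brown fat precursors, in bone and in migrating neurons, rose from the background range. Its log2 signal was 5.16, 5.19 and 5.16 in wild-type cells against 5.87, 6.21 and 6.00 in knock-out cells. All 3 knock-out values lay above the 95th percentile of receptor genes and all 3 wild-type values inside their range. The difference was +0.86 (SE 0.08, limma adjusted p = 2.4e-05). Ebf4, the fourth gene of the family, moved the other way. It fell from 6.11 ± 0.208 to 5.70 ± 0.0251, a difference of −0.41 (SE 0.10, adjusted p = 0.0079, limma), and the knock-out mean stood at the edge of the receptor range.

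Among the Dlx genes the 2 genomic pairs each held a larger and a smaller difference. Dlx5, which acts in ventral forebrain neurons and in cartilage and bone, read 5.42, 4.99 and 5.40 in wild-type cells against 7.42, 7.56 and 7.17 in knock-out cells. The wild-type arrays lay within the receptor range and the knock-out arrays well above it, with a gap of 1.76 log2 units. The difference was +2.11 (SE 0.13, limma adjusted p = 5.9e-07). With wild-type signal inside the receptor range, this size is measured against background and no fold is given.

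Dlx6, the partner of Dlx5 on chromosome 6, rose by much less. Its values were 4.63, 4.72 and 4.58 in wild-type cells against 5.03, 5.02 and 4.91 in knock-out cells, a difference of +0.34 (SE 0.07, adjusted p = 0.0028, limma). The genotypes did not overlap, by 0.18 log2 units, yet all 6 values lay inside the receptor range, and in knock-out cells 59.8% of receptor genes were dimmer. The 95% interval of Dlx6, 0.19 to 0.49, lay below that of Dlx5, 1.83 to 2.40. These are 2 probe sets at different levels, and the difference between the partners was not tested.

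Dlx1 and Dlx2, the pair on chromosome 2, act together in the progenitors of forebrain interneurons. Dlx1 read 6.27, 6.26 and 6.02 in wild-type cells against 7.09, 6.74 and 6.78 in knock-out cells, with no overlap. The rise was +0.69 (SE 0.10, limma adjusted p = 0.00058), or 1.61-fold, from a wild-type mean that was brighter than 98.2% of receptor genes. Dlx2 read 4.97, 4.94 and 5.15 in wild-type cells against 5.01, 5.30 and 4.93 in knock-out cells. These values overlapped inside the receptor range, and the difference of +0.06 (SE 0.10, adjusted p = 0.72, limma) had a 95% interval of −0.16 to 0.29. At this level the arrays could not show whether Dlx2 transcripts were present, and the p-value does not show that the genotypes were alike.

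The remaining Dlx genes also lay near background. Dlx3, which acts in skin, placenta and teeth, had means of 5.60 and 5.48 (difference −0.12, SE 0.07, adjusted p = 0.29, limma), and Dlx4 means of 5.09 and 5.17 (+0.08, SE 0.06, adjusted p = 0.42). Dlx1as, an RNA transcribed against Dlx1, had means of 5.68 and 5.81 (difference +0.14, SE 0.06, limma adjusted p = 0.14). Its 6 values did not overlap between genotypes, by 0.01 log2 units. Since Dlx1as overlaps Dlx1 and no source used here states the strand of the probes, signal of the 2 genes may be shared.

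Msx2, a repressor that acts downstream of BMP signals in skull sutures, limb and neural crest, was the one gene of the 9 that fell. Its log2 signal was 6.26, 5.98 and 6.02 in wild-type cells against 5.26, 5.19 and 5.42 in knock-out cells. The wild-type arrays lay above the receptor range and the knock-out arrays inside it, separated by 0.56 log2 units. The means were 6.08 ± 0.150 and 5.29 ± 0.117 (SD, n = 3 each), a difference of −0.79 (SE 0.09, adjusted p = 7.2e-05, limma), with a 95% interval of −0.99 to −0.59.

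Msx1, its close relative with shared roles in palate, teeth and limb, was at background level throughout. It read 5.11, 5.21 and 5.06 in wild-type cells against 5.19, 5.14 and 5.202 in knock-out cells. The genotypes overlapped, and the difference of +0.05 (SE 0.06, limma adjusted p = 0.63) had a 95% interval of −0.09 to 0.19. Msx3, whose expression is known from the dorsal neural tube, had means of 5.66 and 5.57 (difference −0.09, SE 0.06, adjusted p = 0.32, limma). Over the 3 families, falls that passed were thus found in Msx2 and Ebf4.

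**Figure D2:**
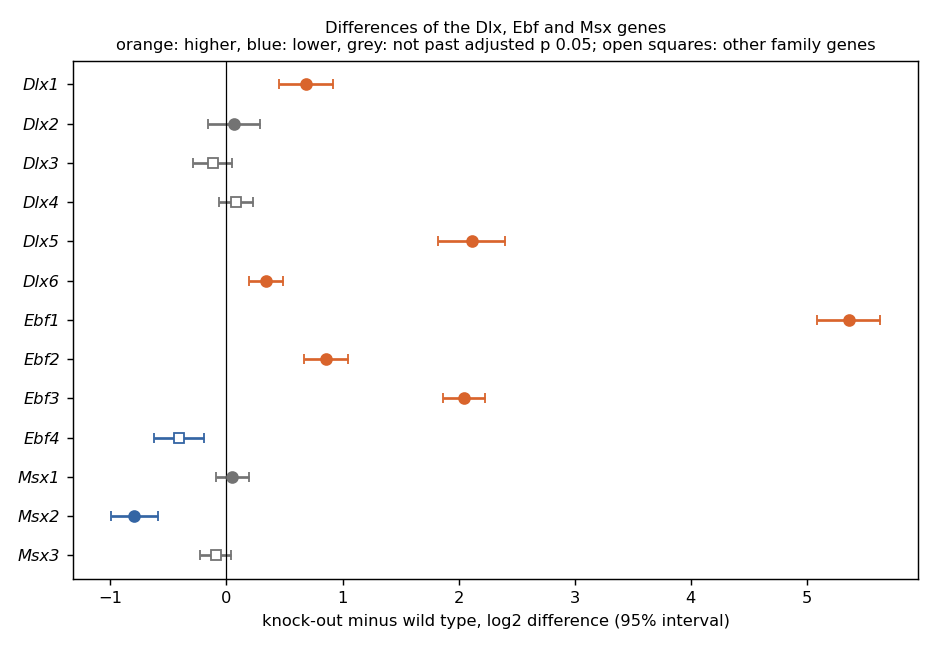
Log2 difference (knock-out minus wild type) with 95% intervals for the 9 genes (filled circles) and for Dlx3, Dlx4, Msx3 and Ebf4 (open squares); orange and blue mark genes called higher and lower, and grey those that did not pass. The values run from +5.36 for Ebf1 to −0.79 for Msx2, with the intervals of Dlx2 and Msx1 across 0.

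The nearest genes on the chromosome were measured to see what lay beside the 9 genes. The 2 closest measured genes on either side of each member gave 29 genes, of which 6 rose, 6 fell and 17 did not pass, or 41.4% changed beside 31.6% of all genes. Their largest difference was 1.37 log2 units. Around Ebf1 the differences were small, with rises of Clint1 (+0.26), a clathrin-binding protein, and Lsm11 (+0.29), a protein of histone RNA processing, and a fall of Rnf145 (−0.33), a ubiquitin ligase. Beside Ebf3 only 9430038I01Rik passed (−0.22), and beside Ebf2 none of the 4 genes did. The call of Lsm11 was lost without wild-type replicate 1 or 2 or knock-out replicate 2 or 3 (adjusted p from 0.054 to 0.071, limma) and with quantile normalization (0.05). That of 9430038I01Rik was lost without wild-type replicate 2 or 3 or knock-out replicate 2 or 3 (0.061 to 0.13) and with the intensity trend and robust fit (0.066).

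Around the Dlx pairs, Sdhaf3, an assembly factor of succinate dehydrogenase next to Dlx5, fell by 0.24 and Hat1, a histone acetyltransferase near Dlx1, fell by 0.39, while the other 7 neighbours did not pass. Msx1 stood between neighbours that all rose, although its own values overlapped. Stk32b, a kinase, rose by 1.37 (adjusted p = 5.7e-06, limma) and Nsg1, an endosomal protein of neurons, by 1.06. Wild-type Stk32b (5.12) lay inside the receptor range, so the size of its rise is not a fold of transcript. Cytl1, a secreted protein of cartilage, rose by 0.48 and Stx18, a syntaxin of the endoplasmic reticulum, by 0.25. The Cytl1 means, 5.17 and 5.66, lay inside the receptor range. Near Msx2, the mitochondrial serine carrier Sfxn1 fell by 0.90 and Sptlc1, a subunit of sphingolipid synthesis, by 0.32. The call of Sdhaf3 was lost without wild-type replicate 1 or 2 or knock-out replicate 3 (adjusted p from 0.083 to 0.11, limma), and that of Sptlc1 without wild-type replicate 2 or 3 or knock-out replicate 1 or 2 (0.051 to 0.14).

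**Figure D3:**
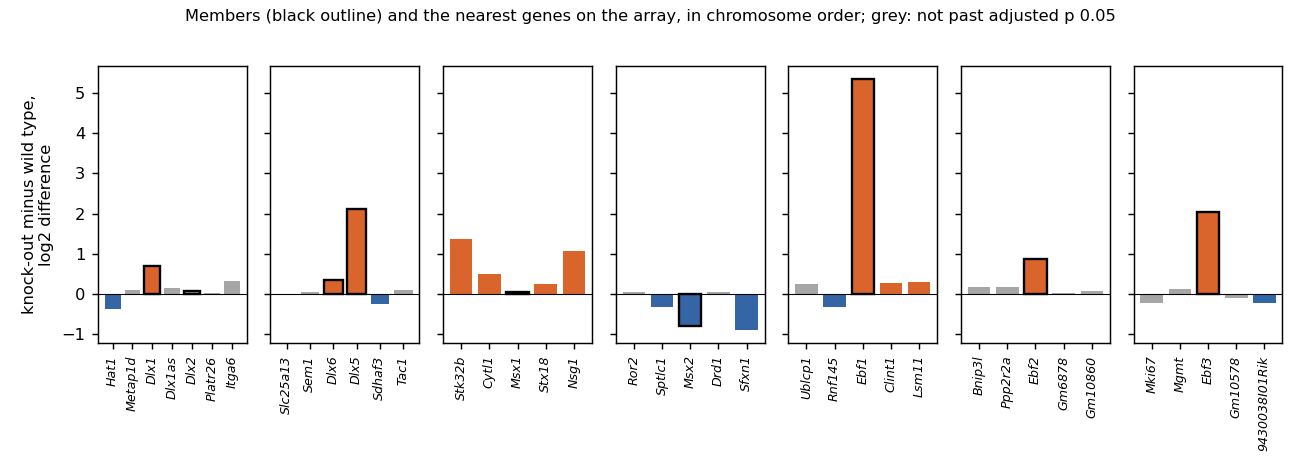
Log2 difference (knock-out minus wild type) of the 9 genes (black outlines) and the nearest measured genes on either side, in chromosome order with even spacing; orange and blue bars passed the test and grey bars did not. Ebf1, Ebf3 and Dlx5 exceed their neighbours, whereas all 4 neighbours of Msx1 are higher and Msx1 is near 0.

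BMP signals act upstream of Msx and Dlx genes. Of 24 measured genes of that pathway 14 were higher and 2 lower, beside 14.0% and 17.6% of all genes. Their median log2 difference was +0.49 beside −0.01 for all genes. Bmp4, a ligand of the dorsal neural tube and limb, rose from 10.57 ± 0.0553 to 12.08 ± 0.0644 (+1.502, SE 0.06, limma adjusted p = 3.7e-08), and the ligand Bmp6 rose by 2.05. The secreted inhibitors Fst (+2.53) and Grem1 (+1.41) rose as well, Grem1 from a wild-type mean of 5.65 inside the receptor range. Of the Id genes, which BMP signals are known to induce, Id1 rose by 1.35, Id2 by 1.34 and Id3 by 0.88, and Id4 had a difference of −0.08. Bmp2 and the receptor Bmpr1b were lower, by 0.24 and 0.33. Both lay inside the receptor range, with means of 5.03 and 4.79 for Bmp2 and 5.51 and 5.18 for Bmpr1b. The Id genes and these last 2 were named after their values were seen. The count of lower BMP genes was 0 without wild-type replicate 2 and 1 without any single knock-out array. Of the Msx genes, commonly read as targets of the pathway, Msx2 fell and Msx1 did not pass, and BMP activity itself was not measured.

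Genes of the ventral forebrain and of GABA neurons, among which Dlx genes act, were called as higher for 6 and lower for 7 of 33. Their median was +0.01. Of all genes 14.0% were called higher and 17.6% lower. The transcription factor Maf rose from 6.30 ± 0.108 to 10.08 ± 0.0956 (+3.78), the retinoic acid receptor gene Rarb by 2.99 and the homeobox gene Meis2 by 2.14, while the chromatin organizer Satb1 fell from 7.72 to 4.73 (−2.99). The defining GABA neuron genes were at background: Gad1, which makes GABA, had means of 5.17 and 5.13, Gad2 means of 4.76 and 4.67, and the vesicular transporter gene Slc32a1 means of 4.88 and 4.88. None of these 3 passed the test. Other genes of the list were above the receptor range in both genotypes, among them the interneuron regulator Lhx6, which fell from 6.48 to 6.11 (−0.37), and the neuropeptide gene Npy, with means of 6.43 and 6.58. The enkephalin gene Penk rose from 5.18 to 6.54 (+1.36). Lhx6, Npy and Penk were named after their values were seen.

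Regulators of cranial and limb mesenchyme, the other setting of Msx and Dlx genes, gave 12 rises and 6 falls of 37. Their median was +0.06. The shares of all genes were 14.0% for rises and 17.6% for falls. Six2, a factor of kidney and facial mesenchyme, rose from 5.27 ± 0.170 to 10.52 ± 0.143 (+5.25, SE 0.10, limma adjusted p = 1e-10). The forkhead genes Foxc2 (+4.28), Foxc1 (+3.40) and Foxd1 (+3.29), which act in meninges and other mesenchyme, rose too. Wild-type Foxc2 (5.30) and Foxd1 (5.44), like Six2, lay inside the receptor range, so their sizes are not folds of transcript. Other forkhead genes of the list moved the other way, with falls of Foxf2 (−2.08) and Foxf1 (−1.94), and Tbx18 (−1.16) and Pax9 (−0.97) fell as well; these 4 were named after their values were seen. Among 12 osteoblast genes 4 rose and none fell, with a median of +0.16, and 6 rose with the replicate block. The 4 were the type I collagen chains Col1a2 (+5.30) and Col1a1 (+1.23), the matrix protein Omd (+1.68) and the phosphatase Alpl (+0.55). Both collagen chains are counted again among the fibroblast markers below. The listed genes Runx2, Bglap and Spp1 are not analysed here. Sp7, the defining regulator of osteoblasts, had means of 5.05 and 5.14, and the bone sialoprotein gene Ibsp 4.63 and 4.63, both within the receptor range.

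Among partners of Ebf proteins and genes of early B cells, 3 of 17 rose and 3 fell, with a median of +0.01. Over all genes 14.0% rose and 17.6% fell. Zfp521, a zinc finger protein that binds and inhibits Ebf factors, rose from 8.64 ± 0.0283 to 10.81 ± 0.107 (+2.17, SE 0.07, adjusted p = 4.1e-09, limma). Foxo1 (+1.02) and the E protein gene Tcf4 (+0.71) rose and Tcf3, which encodes another E protein, fell by 0.27. The falls in this list numbered 1 without wild-type replicate 2 or knock-out replicate 2. The related Zfp423 had means of 5.16 and 5.22 and did not pass. B cell genes that Ebf1 is known to activate stayed near background beside the rise of Ebf1 itself: Cd79a had means of 4.07 and 4.15, Vpreb1 of 5.66 and 5.62 and Pax5 of 5.07 and 5.12, and none of the 3 passed.

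Of 14 fat and marrow stromal genes 4 rose and 3 fell, beside 14.0% and 17.6% of all genes, with a median of +0.0030. Pdgfra, a growth factor receptor of mesenchymal precursors, rose by 3.06 and Prdm16, a regulator of brown fat that works with Ebf2, by 2.77. Wild-type Pdgfra (5.29) and Prdm16 (5.36) lay inside the receptor range, so these sizes are not folds of transcript. The stromal chemokine gene Cxcl12 rose by 2.18, while Kitl fell by 1.19. Cebpd (−0.90) and Cebpb (−0.88) fell as well. The adipocyte genes Fabp4 (5.19 and 5.10), Adipoq (4.59 and 4.43) and Plin1 (4.98 and 5.01) lay at background without passing. Lepr of the same list did so too, at 4.66 and 4.70. Cebpd, Cebpb and Lepr were named after their values were seen. Pparg, the main regulator of fat cells, was above the receptor range at 9.16 and 9.05 and did not pass.

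The other NK-like homeobox genes, the class to which Dlx and Msx belong, gave 5 rises and 4 falls among 38 measured genes. Their median was −0.03. Rises made up 14.0% and falls 17.6% of all genes. The rises numbered 3 without wild-type replicate 3 or knock-out replicate 2. The largest were falls of En2 (−5.05) and En1 (−4.70), which pattern midbrain and hindbrain. A rise of the cortical gene Emx2 (+1.06) and a fall of Hhex (−0.82) followed. The Hhex means, 5.51 and 4.69, lay inside the receptor range. In both genotypes 25 of the 38 had means below the 95th percentile of receptor genes.

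**Figure D4:**
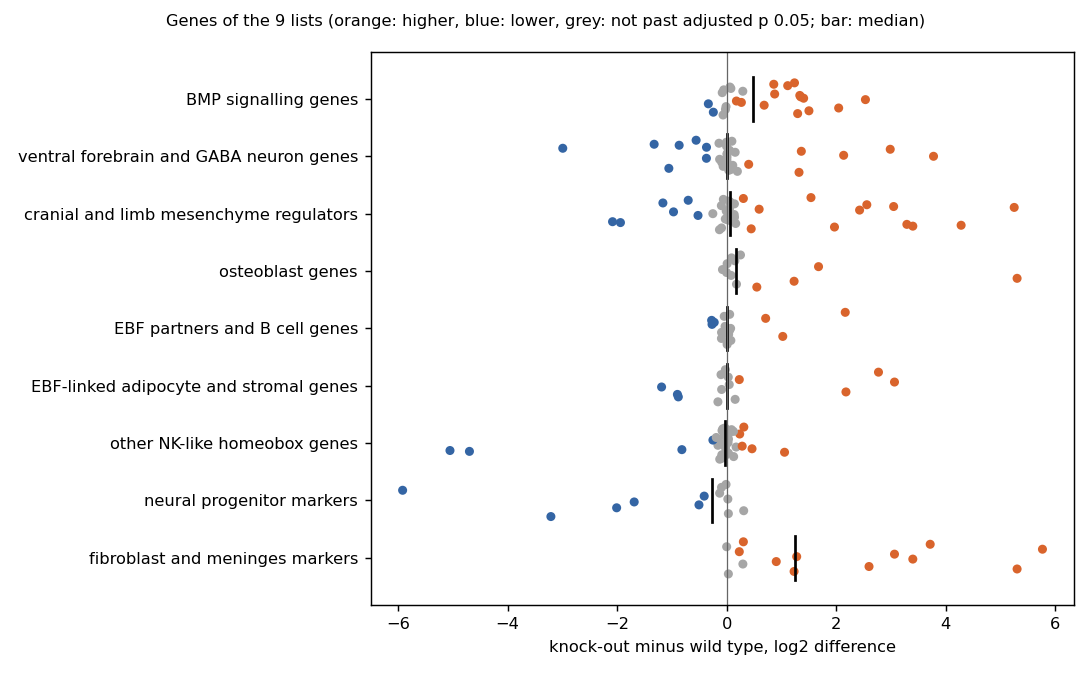
Log2 difference (knock-out minus wild type) of every measured gene of 9 lists, with orange and blue points for genes called higher and lower, grey for the rest, and a bar at each list's median. Medians lie near 0 for the forebrain, Ebf partner, stromal and NK-like lists, at +0.49 for BMP genes, +1.25 for fibroblast markers and −0.27 for neural progenitor markers.

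Markers of cell types moved with the genotypes, and their counts stand beside 14.0% of all genes higher and 17.6% lower. Of 12 neural progenitor markers 6 fell and none rose (1 rose with the replicate block, and without wild-type replicate 1 or knock-out replicate 2). Their summed linear signal ran from 17439 to 19214 on wild-type and from 13445 to 14242 on knock-out arrays. Most of that sum was Vim, the brightest gene of the list, with means of 13.53 and 13.52. Vim did not pass (−0.01). The height of the sum thus mainly reflects Vim, and the drop in knock-out cells mainly the other genes of the list. Sox2 had means of 11.26 ± 0.106 and 5.35 ± 0.173 (−5.92), with Nes at 10.73 and 8.72 (−2.01), Pax6 at 7.12 and 5.44 (−1.69) and Fabp7 at 9.12 and 5.91 (−3.21). Sox2, Nes, Pax6 and Fabp7, markers of the labelled precursor identity, were above the receptor range in wild-type cells. Of these, Sox2 and Pax6 lay within that range in knock-out cells. The markers that did not pass were Vim, Hes5 (+0.03), Sox3 (−0.09), Sox1 (−0.13), Msi1 (+0.31) and Prom1. Prom1 was within the receptor range in both genotypes, at 4.68 and 4.70. Of 14 fibroblast and meninges markers 11 rose and none fell, and their summed signal ran from 6031 to 7209 on wild-type and from 20584 to 22312 on knock-out arrays. Dcn (+0.30), S100a4 (means 6.53 and 6.53) and Aldh1a2 (4.63 and 4.66) did not pass. Postn (+5.77) and Thy1 (+3.72) led the rises beside Col1a2 and Foxc1, Thy1 from a wild-type mean of 5.43 inside the receptor range. Ebf1, Ebf3, Ebf2 and Dlx5 rose on the same arrays as these markers, and the part of cell type in their rise was not tested.

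Genes with the most similar pattern were sought by Pearson correlation over the 6 arrays, as a description without a test. With 3 arrays of each genotype such a correlation mainly follows the genotype difference, and over all genes, including the predicted, receptor and small RNA genes that are not named here, 413 reached an r over 0.99 with Ebf1, 363 with Ebf3 and 126 with Dlx5. Closest to Ebf1 were Pcca (r = 0.9998), a subunit of propionyl-CoA carboxylase, and Tpm2 (0.9998), a tropomyosin. Ebf3 was most like Col6a3 (0.9997), a collagen VI chain, and the phosphodiesterase gene Pde1a (0.9996), and Ebf2 most like Pde9a (0.9989) and Zfp637 (0.9987). For Dlx5 these were Helb (0.9992), a DNA helicase, and Raet1d (0.9991), and for Dlx6 Ap3m1 (0.9977) and Ptprq (0.9956).

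Dlx1 ran closest to Nfyb (0.9975), a subunit of a CCAAT-binding factor, and Soga1 (0.9953), each with 6 arrays as points. The fall of Msx2 was matched best by the phosphodiesterase gene Pde4a (0.9988) and Pcyox1 (0.9982). Dlx2 and Msx1, without a genotype difference that passed, were closest to Mgat4f (0.9871) and Gpr143 (0.9782) and to Mael (0.9965) and Abcg3 (0.9929). None of these last 4 passed the test between genotypes either, and over all genes, those not named included, 1 exceeded an r of 0.99 with Dlx2 and 2 with Msx1.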

How the data were processed

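Total RNA (250 ng per array, per the labels' protocols) was labelled with biotin and measured on 6 Affymetrix Mouse Gene 1.0 ST arrays. The authors deposited log2 values per probe set, the scale being judged from their range. The submitters' processing notes list Partek, without a version; no source used here gives the background correction, normalization or probe summarization. Of 35556 probe sets, 21789 had 1 gene symbol, 1621 several and 12146 none, which left 19938 genes; for 999 genes with several probe sets the one brightest over all 6 arrays was kept. Genotypes and replicate numbers came from the titles.

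The genotypes were compared in R 4.3.3 by limma 3.58.1 (lmFit and eBayes, 4 residual degrees of freedom before moderation), adjusted by Benjamini-Hochberg over all genes. The fit was tested on simulated data. The members and the gene lists were chosen with earlier results of these data known. Named are all members, their families, the 4 largest changes past the threshold in each list, the neighbours that passed, the 2 genes most like each member and the defining cell type markers. Predicted genes, sensory receptors and small RNA genes were left out when the 2 genes most like each member were picked. The counts of genes with an r over 0.99 include them. Of the listed symbols, 14 are not analysed here.

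Replicate numbers may pair the arrays, since deviations from genotype means correlated at 0.29, 0.19 and 0.19 for equal numbers. The titles give the numbers and do not state a pairing. For unequal numbers the correlations were at most −0.0047. Deviations cancel within a genotype, so these low values follow in part from the higher ones and are no separate evidence of pairing. The fit reported is without a block for replicate number, which was 1 of 12 alternatives beside 5 other settings and each array left out.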

Additional observations from a re-analysis of the deposited data

How the results depend on the processing

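Under the 12 alternatives the 6 genes called higher and Msx2 kept their direction and their side of the threshold wherever they were tested. Above the 25th percentile of mean signal, Dlx6 was not tested and 5 genes were called higher. The log2 difference ran from 5.26 to 5.52 for Ebf1, 1.97 to 2.11 for Ebf3, 0.77 to 0.93 for Ebf2, 1.97 to 2.22 for Dlx5, 0.58 to 0.75 for Dlx1, 0.31 to 0.38 for Dlx6 and −0.86 to −0.71 for Msx2. With the replicate block the counts over all genes were 3080 higher and 3920 lower, and the block changed no call among the 9 genes. Lgi1 passed in 4 alternatives, with adjusted p (limma) of 0.046 with the block, 0.04 with median centring, 0.046 with an intensity trend and robust fit and 0.018 without wild-type replicate 1.

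Without knock-out replicate 2 the uncalled difference of Dlx2 reversed, to −0.049 (0.14 without knock-out replicate 3). That of Mgat4f, also uncalled, reversed to −0.021 with median centring, −0.0051 without wild-type replicate 1, −0.0076 without wild-type replicate 2 and −0.048 without knock-out replicate 2 (0.052 without knock-out replicate 3); the cause was not tested. The calls of Lsm11, Sdhaf3, Sptlc1, 9430038I01Rik, Nfyb and Pcyox1 were lost in at least 1 alternative. Signal over background limits Dlx2, Dlx6, Msx1 and the wild-type side of Ebf2 and Dlx5.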
